A study of Mus musculus with 4 samples.

Results

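The genes described here encode subunits of the Polycomb repressive complexes, and they were followed in RNA-seq libraries of mouse ES cells after knockdown of Atad2. They were chosen as a list of 10 gene names, Ezh2, Eed, Suz12, Jarid2, Mtf2, Aebp2, Rnf2, Ring1, Pcgf6 and Cbx7, by their function, with earlier results of these data known and with no threshold on their measured levels. All 10 were found among the 20705 genes that could be named and summed from the deposited tables. The cells were the 46C ES line with a TAP tag knocked in at Atad2, and they belonged to a single chosen clone. They were grown with LIF and 15% fetal bovine serum on gelatin-coated dishes. The control cells (si-ctrl) received an inactive scrambled siRNA and the treated cells (si-Atad2) an anti-Atad2 siRNA, so that both groups carried the tagged allele. There were 2 libraries in each group, numbered 1 and 2. Knockdown in the study used more than 1 active siRNA, and which of them went into which library is not given in the sources used here. The labels call libraries 1 and 2 replicates, whereas the study also describes RNA samples that were each sequenced again. Libraries 1 and 2 may therefore be repeat sequencing of the same RNA. The p-values, SEs and intervals by limma rest on the spread between these libraries, pooled over all genes tested. The spread of the gene itself enters them only in part, so they can be too narrow for a gene whose pairs differ. All of this spread may be technical.

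Polycomb proteins keep developmental genes silent, and in ES cells they occupy many promoters of lineage regulators. Polycomb repressive complex 2 (PRC2) methylates lysine 27 of histone H3, and Polycomb repressive complex 1 (PRC1) attaches ubiquitin to histone H2A and compacts chromatin. Each complex is built on a small core, and exchangeable accessory subunits define its forms. Atad2 is an AAA ATPase with a bromodomain that binds acetylated chromatin, and the comparison asked how transcript levels changed once it was depleted.

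Levels are given in FPKM, that is fragments scaled to transcript length and library size, as the authors obtained them with Cuffdiff, run separately on the libraries numbered 1 and on those numbered 2. The level of a gene is the sum over its listed transcripts of at least 200 bases that could be named. Of 59120 listed transcripts 14790 stayed unnamed, so a level may be too low, which also touches ranks and ratios of levels between genes. Because each run was scaled on its own, changes were computed within a pair as log2((si-Atad2 FPKM + 1)/(si-ctrl FPKM + 1)), called the log2 ratio below, and levels set side by side across pairs carry that reservation. With the pseudocount of 1 FPKM, changes of genes at low levels come out too small. The tables hold no read counts, so depth is unknown and no counting interval was computed. All FPKM of a library added up to 676151 at the least and 743454 at the most, with 45.8% to 52.4% in the top 10 transcripts. The GC content of a gene was the mean over its annotated transcripts of at least 200 bases. The ratio of si-ctrl 2 to si-ctrl 1 had a Spearman correlation of -0.54 with GC content over 10152 genes, which share these libraries. The log2 ratio had one of -0.28 in pair 1 and 0.083 in pair 2. The part of GC content in the results was examined through a fit with its trend removed. All 8 ES cell markers were detected, between 68.6 FPKM for Klf4 and 985 FPKM for Dppa5a on average in si-ctrl. None of the 8 changed at an adjusted p under 0.05 by limma. An unadjusted p under 0.05 by limma was reached by 3 of 8, against 16.2% of all genes tested. These were Nanog, Pou5f1 and Dppa5a, with mean log2 ratios of -0.25, -0.14 and -0.14. In both si-Atad2 libraries 6 of 8 lay below both controls (26.7% of all genes) and 1 of 8 above (22.5%). The summed level of the 8 was 3232 and 3282 FPKM in si-ctrl and 3055 and 3077 FPKM in si-Atad2. Of the fibroblast, primitive endoderm and neural markers, 6 genes passed the limit of a mean of 1 FPKM and 0 of them changed (1 of 6, Pax6, at an unadjusted p under 0.05 by limma), and the fibroblast gene Lum was listed at 0 in all 4 libraries. Of 4 trophoblast markers that passed it, Tfap2c, a transcription factor that ES cells also express, was lower after knockdown (24.2 and 23.9 FPKM in si-ctrl against 15.7 and 19.4 FPKM in si-Atad2, adjusted p = 0.020 by limma). Levels were also summed over all listed markers of a kind, with those under the limit included. For fibroblast markers the sum was 7.71 to 8.48 FPKM in si-ctrl and 7.16 to 8.49 FPKM in si-Atad2. In the same order it was 6.58 to 7.25 and 6.60 to 6.84 FPKM for primitive endoderm markers. It was 6.82 to 7.30 and 6.15 to 6.74 FPKM for neural, and 28.8 to 29.2 and 20.4 to 24.5 FPKM for trophoblast markers. Most of the trophoblast sum was Tfap2c. The other trophoblast markers past the limit, Eomes, Krt7 and Hand1, had mean log2 ratios of -0.13, 0.047 and -0.018 and did not pass the test. The part of the listed markers of any kind in the results was not tested.

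Atad2, on chromosome 15 from 58094044 to 58135082 (GRCm38, minus strand), was examined first, since it was the target of the siRNA. Its level was 34.1 and 36.0 FPKM in si-ctrl 1 and 2, against 10.1 and 13.0 FPKM in si-Atad2 1 and 2. Both knockdown libraries lay below both controls, and 29.6% of the control level was left in pair 1 and 36.2% in pair 2. The log2 ratio was -1.66 and -1.40, with a mean of -1.53 (SE 0.077, n = 2 pairs, adjusted p = 6.1e-06 by limma over all genes tested). At the same log2 ratio the call was lost, with an adjusted p of 0.50, when genes of any level were tested together, and the range over the alternatives with a test was 5.0e-07 to 0.50 by limma. In these bulk libraries fewer cells of a kind cannot be told apart from less RNA per cell, here and for the genes that follow. The paralog Atad2b stayed between 12.1 and 13.6 FPKM in the 4 libraries.

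Among the Polycomb subunits, 0 of 10 were higher and 0 of 10 lower after knockdown at an adjusted p under 0.05 by limma. Across all 10152 genes tested, 168 were higher (1.65%) and 45 lower (0.443%) after knockdown. An unadjusted p under 0.05 was reached by 1646 of all genes, or 16.2%, and by 1 of the 10 subunits, Ring1. The median log2 ratio of the subunits was -0.0078 and that of all genes tested was -0.0077. The subunits' ratios ran from -0.30 for Ring1 to 0.11 for Rnf2. The size of the change, taken without its sign, had a median of 0.073 over the subunits and 0.076 over all genes. Between libraries of the same group it was of the same order, the subunits having a median of 0.061 for si-ctrl 2 against si-ctrl 1 and of 0.107 for si-Atad2 2 against si-Atad2 1. These are unlike measures, here and for the single genes below. The change is a mean of 2 ratios within a run, and the difference within a group is a single one across runs. With 2 libraries against 2, a two-sided exact permutation test of a single gene cannot give a p under 0.333.

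**Figure D1:**
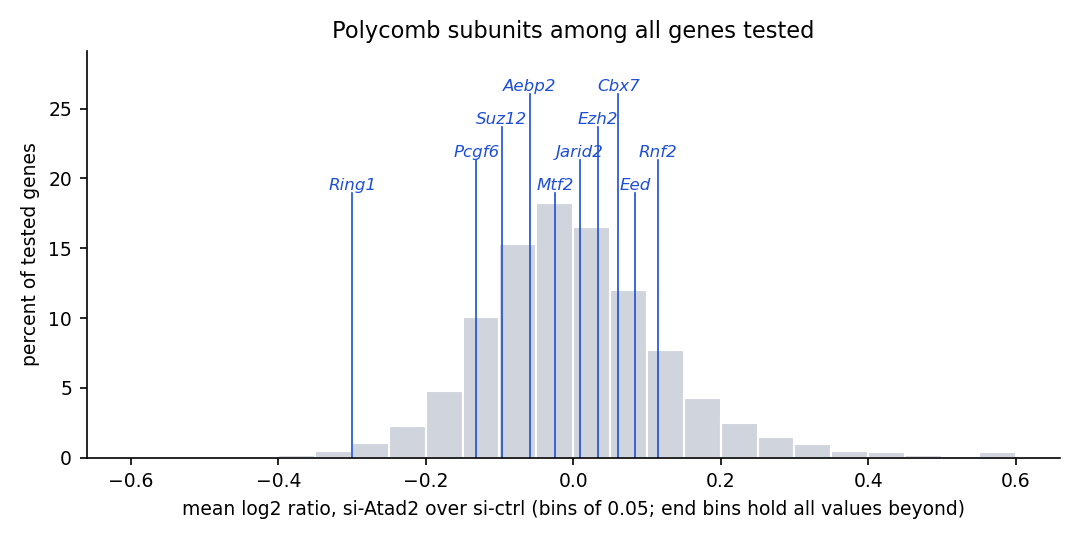
Percent of the 10152 tested genes (vertical axis) in bins of 0.05 of the mean log2 ratio of si-Atad2 over si-ctrl (horizontal axis, end bins holding all values beyond), with a blue line for each of the 10 Polycomb subunits. The lines lie from -0.30 for Ring1 to 0.11 for Rnf2, and the other 9 lie between -0.13 and 0.11.

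In both si-Atad2 libraries, 3 of 10 subunits (Eed, Rnf2 and Cbx7) lay above both si-ctrl libraries, against 22.5% of all genes tested. Ring1 was the only subunit below both controls in both si-Atad2 libraries, 1 of 10 against 26.7% of all genes. The other 6 overlapped, as did 5159 of the 10152 genes tested. The sign of the log2 ratio was the same in both pairs for 5 of 10 subunits, against 62.6% of all genes. By complex, 1 of 6 PRC2 subunits and 4 of 4 PRC1 subunits had the same sign in both pairs, and the PRC1 subunits were divided between higher (Rnf2, Cbx7) and lower (Ring1, Pcgf6).

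In the si-ctrl libraries the genes differed widely in level. Jarid2 stood highest, at 119 ± 2.6 FPKM (mean ± SD, n = 2 si-ctrl libraries), followed by Mtf2 at 95.5 ± 2.7, Suz12 at 88.5 ± 5.3 and Eed at 84.0 ± 2.7 FPKM. Ezh2 came next at 57.5 ± 2.1, then Cbx7 at 46.2 ± 1.2, Aebp2 at 41.6 ± 0.48, Rnf2 at 34.5 ± 1.9 and Pcgf6 at 26.8 ± 1.3 FPKM. Ring1 was lowest by a wide margin, at 3.25 ± 0.045 FPKM. Neighbours in this order kept apart in the si-ctrl libraries except Suz12 and Eed, whose values overlapped. Over the 4 libraries Aebp2 and Rnf2 also overlapped, since Aebp2 in si-Atad2 1 and Rnf2 in si-Atad2 2 both lay at 37.4 FPKM. Set against all genes tested, whose median level was 9.73 FPKM over the 4 libraries, Jarid2 was 12.2 times and Pcgf6 2.63 times that median, whereas Ring1 was 0.294 times it, above only 19.5% of the genes. All 6 PRC2 subunits lay higher than 86.1% or more of the genes tested.

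**Figure D2:**
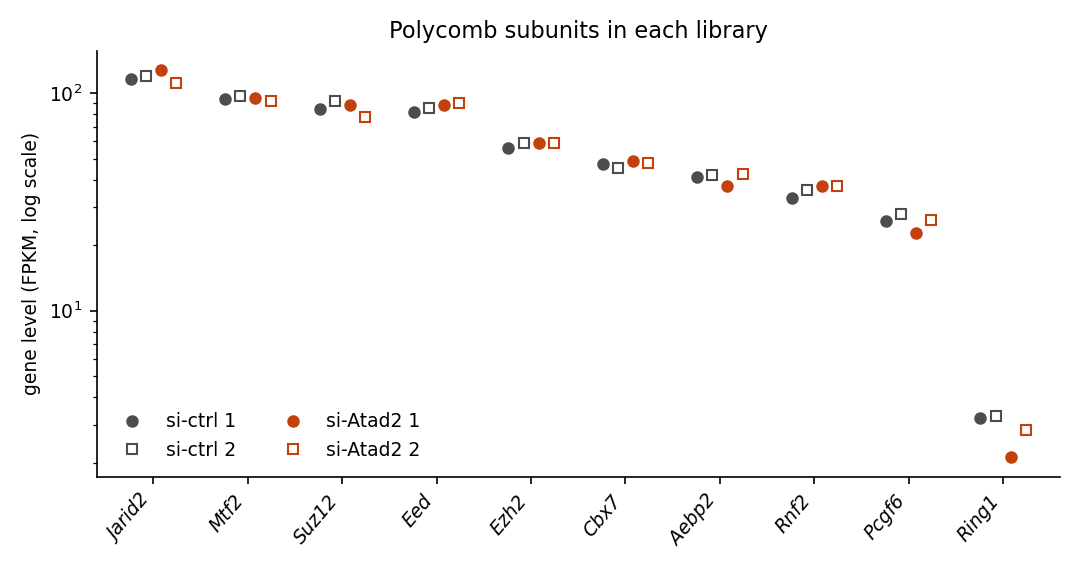
Level of each Polycomb subunit in FPKM on a log axis, in order of the si-ctrl mean, with 1 point for each of the 4 libraries (grey si-ctrl, orange si-Atad2, filled circles library 1, open squares library 2). For 9 of the 10 genes the 4 points lie close together between 22.7 and 128 FPKM, and Ring1 stands apart between 2.12 and 3.28 FPKM.

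The core of PRC2 is formed by Ezh2, the methyltransferase, Eed, which binds methylated histone H3 and stimulates the enzyme, and Suz12, the scaffold that holds them. Ezh2 lies on chromosome 6 from 47530139 to 47595341, on the minus strand. Its level was 56.0 and 59.0 FPKM in si-ctrl 1 and 2, and 59.0 and 58.8 FPKM in si-Atad2 1 and 2. The groups overlapped, and log2 ratios of 0.073 in pair 1 and -0.0058 in pair 2 gave a mean of 0.034 (95% interval -0.10 to 0.17, adjusted p = 0.84 by limma). Eed (chromosome 7, 89954654 to 89980983, minus strand) was at 82.1 and 85.9 FPKM in si-ctrl and at 88.5 and 89.6 FPKM in si-Atad2. Both knockdown libraries were above both controls, by a log2 ratio of 0.11 in pair 1 and 0.061 in pair 2, but the mean of 0.084 (-0.045 to 0.21) did not pass the test (adjusted p = 0.53 by limma). Its difference between the si-ctrl libraries, 0.064 on the log2 scale, was as large as that in pair 2. Suz12 (chromosome 11, 79993106 to 80034123, plus strand) had 84.8 and 92.3 FPKM in si-ctrl and 87.7 and 77.8 FPKM in si-Atad2. Here the pairs went apart, with 0.049 in pair 1 and -0.24 in pair 2, and the mean of -0.097 (-0.26 to 0.063) had an adjusted p of 0.56 by limma. For the core genes, then, the intervals by limma, which pool the spread over genes, allow changes in the range of -0.26 to 0.21 on the log2 scale.

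**Figure D3:**
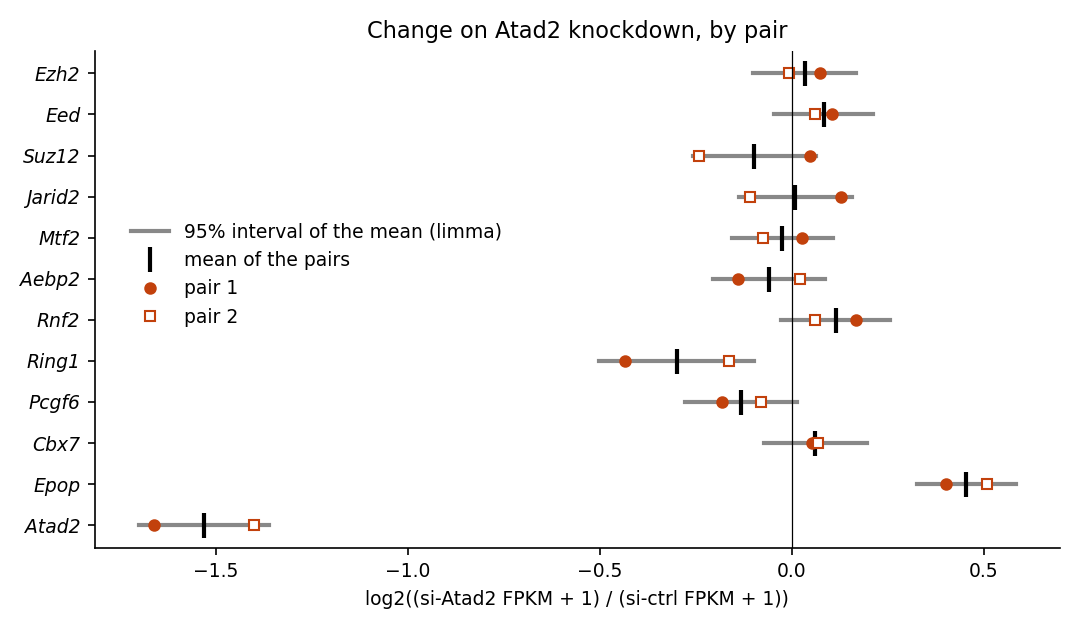
Log2 ratio of si-Atad2 over si-ctrl (FPKM + 1) for the 10 Polycomb subunits, the PRC2 accessory gene Epop and the targeted gene Atad2, with the value of pair 1 (filled circle), of pair 2 (open square), their mean (black bar) and the 95% interval of the mean by limma (grey line). The interval includes 0 for 9 of the 10 subunits; that of Ring1 runs from -0.50 to -0.097, Epop lies at 0.45 and Atad2 at -1.53.

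Genes of the PRC2 core are known from other cells as targets of E2F transcription factors, which drive genes of the cell cycle. The promoters were therefore searched for the 8-base words TTTGGCGC, TTTGCCGC, TTTCGCGC and TTTCCCGC, on both strands, in RefSeq sequences of GRCm38.p6 that run from 250 bases before the start of a transcript through 50 bases from it. These words do not contain one another. All 10 subunits were matched by symbol, with 14 promoters, and 2 promoters held a word, that of Ezh2 and that of Suz12. Of all 32851 promoters in the same table, 2.26% held at least 1 of the 4 words. The sequences of these genes are shown 5′ to 3′ on the gene's strand, with the matching word in capitals, because they are the catalytic and the scaffold subunit and hold the only matches. Ezh2 is at chr6:47594981-47595280, minus strand, with TTTGGCGC at bases 254 to 261, and Suz12 at chr11:79992856-79993155, plus strand, with TTTCCCGC at bases 32 to 39.
Ezh2: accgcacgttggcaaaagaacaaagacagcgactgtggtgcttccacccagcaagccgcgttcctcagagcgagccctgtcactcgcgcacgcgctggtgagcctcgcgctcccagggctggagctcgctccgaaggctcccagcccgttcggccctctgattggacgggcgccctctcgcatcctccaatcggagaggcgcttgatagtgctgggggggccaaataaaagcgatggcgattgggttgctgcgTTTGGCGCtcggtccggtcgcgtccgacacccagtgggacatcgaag
Suz12: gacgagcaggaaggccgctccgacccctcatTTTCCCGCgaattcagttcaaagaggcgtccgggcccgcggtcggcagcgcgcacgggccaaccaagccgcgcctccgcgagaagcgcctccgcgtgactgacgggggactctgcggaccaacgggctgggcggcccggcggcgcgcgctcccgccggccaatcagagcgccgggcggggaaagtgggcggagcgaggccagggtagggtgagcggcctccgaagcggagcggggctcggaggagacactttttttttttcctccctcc
A match is a description of these letters and no evidence of binding, and the part of E2F factors in the levels was not tested.

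Jarid2, Mtf2 and Aebp2 are accessory subunits of PRC2. Jarid2 and Aebp2 mark the form called PRC2.2, and Mtf2, a Polycomb-like protein that binds unmethylated CpG-rich DNA, marks the form called PRC2.1. None of the 3 passed the test, and all of them overlapped between groups and had opposite signs in the pairs. Of the 10152 genes tested, 5159 overlapped and 3797 lacked a common sign in the pairs. Jarid2 (chromosome 13, 44729474 to 44921643, plus strand) was at 117 and 120.4 FPKM in si-ctrl, and at 128 and 112 FPKM in si-Atad2. The highest and the lowest of its 4 values were thus the knockdown libraries, and its log2 ratios were 0.13 for pair 1 and -0.11 for pair 2 (mean 0.0092, 95% interval -0.14 to 0.16, adjusted p = 0.97 by limma). Mtf2 (chromosome 5, 108065674 to 108109004, plus strand) had 93.5 and 97.4 FPKM in si-ctrl and 95.2 and 92.4 FPKM in si-Atad2, with a mean log2 ratio of -0.025 (-0.16 to 0.11, adjusted p = 0.88 by limma) that turned to 0.010 after rescaling to TPM. Aebp2 (chromosome 6, 140622663 to 140678472, plus strand) gave 41.3 and 42.0 FPKM in si-ctrl, and 37.4 and 42.6 FPKM in si-Atad2, with a mean of -0.059 (-0.20 to 0.088, adjusted p = 0.72 by limma). The spread between the si-Atad2 libraries was the larger one for Jarid2 and Aebp2, at -0.19 and 0.19 on the log2 scale, against 0.045 and 0.023 within si-ctrl.

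The sums hide different numbers of listed transcripts. Eed and Ring1 are each listed with 1 transcript of 2060 and 2034 bases, and Rnf2 took at least 98.8% of its level from 1 of 2. For Suz12, the transcript of 4373 bases carried 82.9% and 79.1% of the level in si-ctrl and 82.4% and 79.1% in si-Atad2, so that both of its transcripts kept their shares within a pair while the sum went up in pair 1 and down in pair 2. Jarid2 drew 67.5% and 75.9% of its level in si-ctrl from the transcript of 5997 bases, and 74.7% and 68.7% in si-Atad2. This share was higher in the knockdown library of pair 1 and lower in that of pair 2, as the level of the gene was. One further Jarid2 transcript, of 3184 bases, stood at 2.97 FPKM in si-ctrl 1 but is listed at 0 in si-ctrl 2, a difference within the control group. Mtf2 was spread over 7 transcripts, of which that of 4343 bases held between 40.6% and 45.0%. Aebp2 drew between 43.1% and 52.5% from its transcript of 2475 bases, and its transcript of 1521 bases ranged from 3.84 to 8.40 FPKM between the si-ctrl libraries alone. The division of a gene's fragments among overlapping transcripts is an estimate of Cuffdiff, and no test was run on single transcripts.

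**Figure D4:**
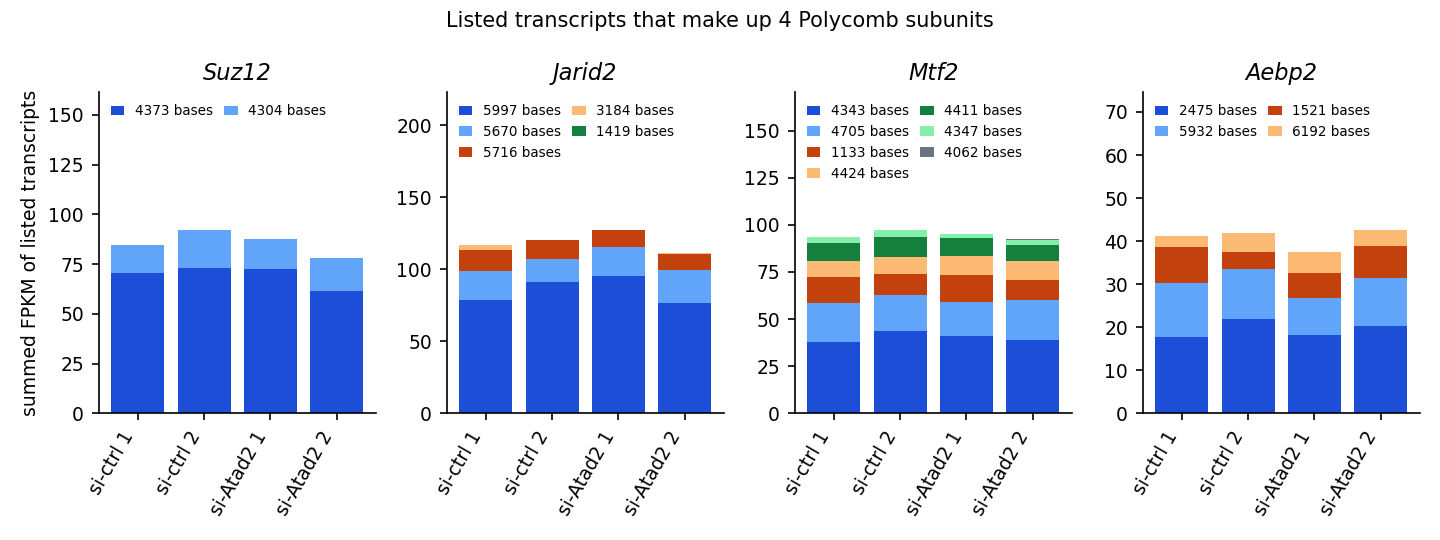
Stacked FPKM of the listed transcripts that sum to Suz12, Jarid2, Mtf2 and Aebp2 (vertical axis, from 0, separate for each gene) in each of the 4 libraries, with colours standing for transcript length. The tallest block, of 4373 bases for Suz12 and 5997 bases for Jarid2, rises and falls with the sum, and the share of the Jarid2 block runs from 67.5% to 75.9% in si-ctrl and from 68.7% to 74.7% in si-Atad2.

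Rnf2 (RING1B) and Ring1 (RING1A) are the alternative E3 ligases of PRC1, which ubiquitinate histone H2A. Rnf2 lies on chromosome 1 from 151458004 to 151500955, on the minus strand, and was at 33.1 and 35.8 FPKM in si-ctrl and at 37.3 and 37.4 FPKM in si-Atad2. Both knockdown values were above both controls, though the controls differed by 0.11 on the log2 scale, as much as the mean log2 ratio of 0.11 (0.17 in pair 1 and 0.060 in pair 2, 95% interval -0.028 to 0.26, adjusted p = 0.43 by limma). Ring1 (chromosome 17, 34020792 to 34024680, minus strand) was at 3.22 and 3.28 FPKM in si-ctrl, and at 2.12 and 2.82 FPKM in si-Atad2. The authors' 95% interval for the single listed transcript was 2.86 to 3.57 FPKM in si-ctrl 1 against 1.83 to 2.41 FPKM in si-Atad2 1, which do not overlap, and 2.90 to 3.66 FPKM in si-ctrl 2 against 2.48 to 3.16 FPKM in si-Atad2 2, which do. Each of these intervals comes from a single library and holds no spread between libraries. The level of Ring1 in the knockdown was 65.9% of its control in pair 1 and 85.9% in pair 2. Its log2 ratio was -0.43 and -0.16, with a mean of -0.30 (SE 0.092, 95% interval -0.50 to -0.097). This was the largest change among the subunits in size, exceeded in size by 3.76% of all genes tested, with an unadjusted p of 0.0076 and an adjusted p of 0.13 by limma. Over the alternatives with a test, the adjusted p of Ring1 lay between 0.11 and 0.62 by limma. Its log2 ratio was -0.40 with a pseudocount of 0.1 FPKM and -0.14 with one of 5 FPKM. The annotated transcripts of Ring1 had a mean GC content of 61.7%, the highest of the 10. With the GC trend removed the log2 ratio of Ring1 was -0.29 (adjusted p = 0.14 by limma). The difference between the si-Atad2 libraries, 0.29 on the log2 scale, was about as large as the mean change, whereas that between the si-ctrl libraries was 0.022.

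The level of Rnf2 relative to Ring1 was 10.3 and 10.9 in si-ctrl 1 and 2, and 17.6 and 13.3 in si-Atad2 1 and 2. Both knockdown values exceeded both controls, which follows from Rnf2 lying above and Ring1 below both controls and adds no further result. Neither gene passed the test. The highest of the 4 ratios goes with the lowest level of Ring1, which is the denominator. The promoter of Ring1 is shown because it was the subunit farthest from 0. It lies at chr17:34024631-34024930 (GRCm38.p6, RefSeq, minus strand), is printed 5′ to 3′, and held none of the 4 words searched, so it has no capitals.
Ring1: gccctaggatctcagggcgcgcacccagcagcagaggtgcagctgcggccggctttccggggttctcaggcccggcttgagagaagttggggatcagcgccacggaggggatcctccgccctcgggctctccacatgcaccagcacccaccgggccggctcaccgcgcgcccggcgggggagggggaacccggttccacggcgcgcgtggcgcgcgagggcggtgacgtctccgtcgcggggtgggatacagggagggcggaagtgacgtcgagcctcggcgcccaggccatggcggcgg

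Pcgf6 is the PCGF subunit that defines a variant PRC1 found on germline genes, and Cbx7 is the chromodomain subunit that carries canonical PRC1 to methylated histone H3 in ES cells. Pcgf6 (chromosome 19, 47033617 to 47050906, minus strand) had 25.8 and 27.7 FPKM in si-ctrl, and 22.7 and 26.1 FPKM in si-Atad2. It was lower in the knockdown library of both pairs, although si-Atad2 2 lay above si-ctrl 1. The log2 ratio was -0.18 and -0.081, the mean -0.13 (-0.28 to 0.015, adjusted p = 0.37 by limma). Cbx7 (chromosome 15, 79915807 to 79971119, minus strand) was at 47.1 and 45.4 FPKM in si-ctrl, and at 48.9 and 47.6 FPKM in si-Atad2. Its log2 ratios, 0.054 and 0.069, lay closest together of all 10 subunits, with a mean of 0.061 (-0.073 to 0.20, adjusted p = 0.67 by limma), which is about the size of its difference between the si-ctrl libraries (-0.052).

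The use of the strand in counting is not stated, so reads of overlapping genes cannot be told apart. In the GENCODE annotation the exons of Mtf2 share 395 bases with Tmed5, those of Eed 261 bases with E230029C05Rik, those of Suz12 178 bases with Gm26563 and those of Ezh2 174 bases with Gm26625. Rnf2 shares 158 bases with Trmt1l and Cbx7 shares 100 bases with Apobec3. All of these partners lie on the opposite strand, and the shared part was at most 6.93% of the exonic bases of a subunit. Jarid2, Aebp2, Ring1 and Pcgf6 share no exonic base with an annotated gene.

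Most subunits belong to families in which paralogs can take the same place in the complex, and a single paralog was far more abundant in several of them. Ezh2 was 4.55 and 5.05 times as abundant as Ezh1, its less active paralog, in si-ctrl 1 and 2, and 5.92 and 4.96 times in si-Atad2 1 and 2. Ezh1 itself was at 12.3 and 11.7 FPKM in si-ctrl and 9.96 and 11.8 FPKM in si-Atad2, with an adjusted p of 0.49 by limma. Mtf2 exceeded its Polycomb-like paralog Phf19 by 33.0 to 42.9 times over the 4 libraries, and the third family member, Phf1, has no named transcript here. Phf19 was lower in both si-Atad2 libraries, at 2.44 and 2.15 FPKM against 2.83 and 2.59 FPKM in si-ctrl, without passing the test (adjusted p = 0.35 by limma).

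Among the CBX subunits, Cbx7 was 5.14 to 5.30 times as abundant as Cbx2 in the 4 libraries, the steadiest of these ratios. Cbx2 stayed between 8.83 and 9.24 FPKM (adjusted p = 0.87 by limma). Cbx8 was under the limit of 1 FPKM, at most 0.738 FPKM, and was not tested; Cbx6 has no named transcript here. The PCGF family was more even. Pcgf2 was highest, at 35.2 and 32.7 FPKM in si-ctrl and 35.9 and 33.9 FPKM in si-Atad2, and Pcgf3 lay at 22.7 and 23.1 FPKM in si-ctrl, close to Pcgf6. The level of Pcgf6 was between 1.05 and 1.23 times that of Pcgf3. Pcgf5 followed at 10.7 to 12.4 FPKM, Pcgf1 at 3.17 to 3.41 FPKM and Bmi1 (PCGF4), best known from adult stem cells, at 1.32 to 1.59 FPKM. None of the 5 passed the test, with adjusted p-values by limma from 0.52 for Bmi1 to 0.84 for Pcgf1.

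**Figure D5:**
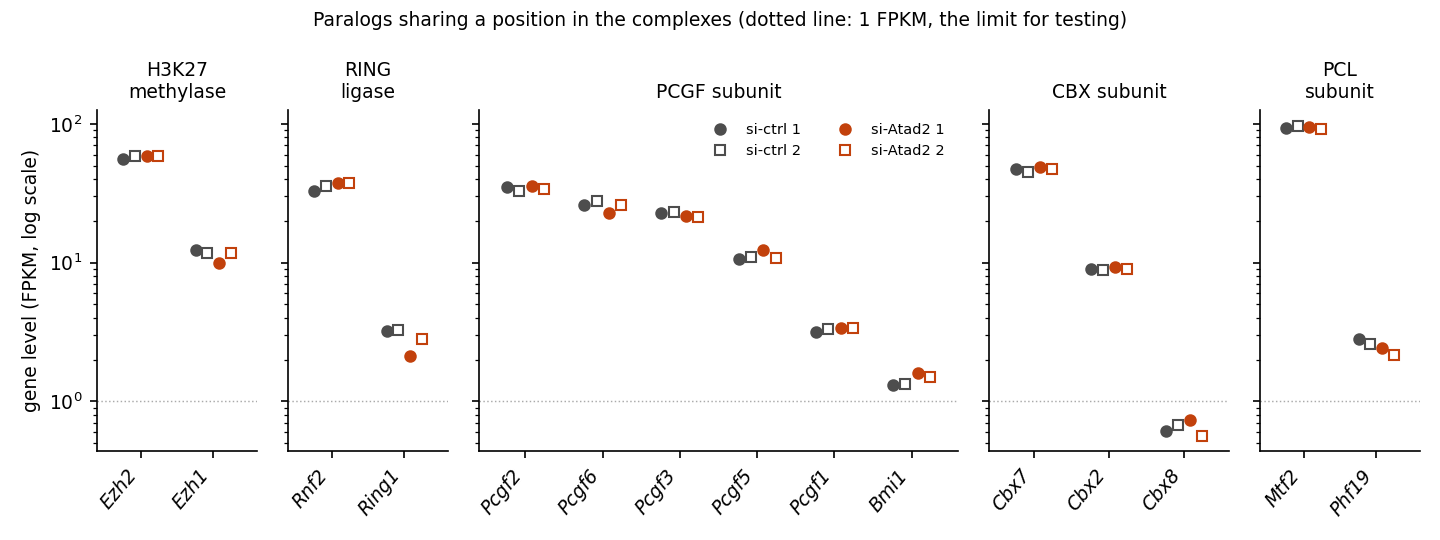
Level in FPKM on a shared log axis of paralogs that take the same position in PRC2 or PRC1, with 1 point for each of the 4 libraries (grey si-ctrl, orange si-Atad2) and a dotted line at 1 FPKM, the limit for testing. In the methyltransferase, ligase, CBX and Polycomb-like (PCL) panels the leading gene stands well above its paralogs in every library, whereas Pcgf2, Pcgf6 and Pcgf3 lie near each other.

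Other genes of the Polycomb system were read from the same fit. Of 39 listed, 32 were tested, 4 were under 1 FPKM and 3 (Rbbp7, Phf1 and Cbx6) have no named transcript. Of the 32, 1 was higher and 0 were lower, against 1.65% and 0.443% of all genes tested, and 31 did not pass the test. The median log2 ratio of the 32 was -0.020. The gene that rose was Epop, which encodes an accessory subunit of PRC2.1 that binds elongin B and C. Epop (chromosome 11, 97627389 to 97629702, minus strand) was at 113 and 105 FPKM in si-ctrl, and at 149 and 150.2 FPKM in si-Atad2. The groups were well apart, and the level reached 132% of the control in pair 1 and 143% in pair 2. Its log2 ratio was 0.40 and 0.51, with a mean of 0.45 (SE 0.059, 95% interval 0.33 to 0.58, adjusted p = 0.0027 by limma), against differences within a group of -0.097 for si-ctrl and 0.011 for si-Atad2. Epop has a single listed transcript, and the mean GC content of its annotated transcripts was 66.9%. With the GC trend removed the log2 ratio was 0.43 (adjusted p = 0.014 by limma). At the same log2 ratio of 0.45, the call was lost when genes of any level were tested (adjusted p = 0.50) and when transcripts under 200 bases were kept (adjusted p = 0.072), in a range over the alternatives of 0.00079 to 0.50 by limma.

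The 4 genes of highest level in this list were Phc1, Epop, Usp7 and Rbbp4. Phc1, the polyhomeotic subunit of canonical PRC1, was at 237 and 205 FPKM in si-ctrl and 227 and 208 FPKM in si-Atad2, more than any of the 10 subunits. Usp7, a deubiquitinase found in variant PRC1, lay between 91.7 and 96.3 FPKM, and Rbbp4, the histone-binding protein of the PRC2 core, between 87.1 and 89.7 FPKM. Neither had a log2 ratio larger in size than 0.071 in a pair. An unadjusted p under 0.05 was reached by 4 of the 32, Epop, Kdm2b, Kdm6a and Kdm6b, a share no higher than the 16.2% of all genes tested, and the last 3 are named after their values were seen. Kdm2b brings variant PRC1 to CpG islands. It was at 25.8 and 24.6 FPKM in si-ctrl and at 21.2 and 20.1 FPKM in si-Atad2, with log2 ratios of -0.27 and -0.28 in the pairs (adjusted p = 0.062 by limma). Kdm6a and Kdm6b, demethylases that remove the PRC2 mark, lay on opposite sides. Kdm6a had 18.7 and 17.4 FPKM in si-ctrl and 22.2 and 21.3 FPKM in si-Atad2 (mean log2 ratio 0.26, adjusted p = 0.081 by limma). Kdm6b had 21.0 and 20.4 FPKM in si-ctrl and 18.5 and 16.1 FPKM in si-Atad2 (mean log2 ratio -0.25, adjusted p = 0.11 by limma). L3mbtl2, a subunit of the Pcgf6 form, had a level of 0 in all 4 libraries, as summed from what was named for it. Transcripts of it may be among the 14790 that stayed unnamed, so this is no evidence that the gene is silent.

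Developmental genes that Polycomb complexes occupy in ES cells were listed as a readout of the silent state. Of 35 such genes, 25 were under 1 FPKM, 1 (Hoxa2) has no named transcript and 9 were tested. None of the 9 passed the test, and 1 reached an unadjusted p under 0.05 by limma, against 16.2% of all genes tested. The median log2 ratio of the 9 was -0.035. In both knockdown libraries 3 lay above both controls (22.5% of all genes tested) and 3 below (26.7% of all genes). The remaining 3 overlapped, as did 5159 of the 10152 genes tested. Cdkn2a, which encodes cell cycle inhibitors, was highest, at 6.35 and 5.83 FPKM in si-ctrl and 5.38 and 5.70 FPKM in si-Atad2 (adjusted p = 0.52 by limma). Pax6, a regulator of neural fate, was at 2.15 and 2.53 FPKM in si-ctrl and 1.99 and 1.79 FPKM in si-Atad2, with an unadjusted p of 0.047 and an adjusted p of 0.30 by limma. Eomes, a mesendoderm regulator, ran from 1.91 to 2.33 FPKM. At these levels the pseudocount compresses any change, and at under 1 FPKM none was tested.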

How the data were processed

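RNA of 4 libraries, 2 si-ctrl and 2 si-Atad2, was prepared with the TruSeq RNA protocol and sequenced from paired ends in 1 shared lane. The submitters' processing notes name TopHat, Cuffdiff and the build mm9 (the supplement names Bowtie for mapping), whereas positions in the deposited tables are those of GRCm38. The authors ran Cuffdiff once per pair and deposited FPKM with 95% intervals for 59120 transcripts. Tables of the authors' own comparisons (fold changes and p-values) were not used. Since FPKM are no counts, a count model was not applied, and the depth per library is unknown.

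Groups and replicate numbers came from the sample labels. Transcripts were named from GENCODE vM21, by a length within 3 bases inside the locus (14588 transcripts) or by the only coding gene of the locus (29742), and 14790 stayed unnamed. TEC and sense-intronic genes were left out of the length match after a chance match to the main Rnf2 transcript had been seen. FPKM of transcripts of at least 200 bases with status OK in all 4 libraries were summed per gene. The 10152 genes with a mean of at least 1 FPKM were tested with limma 3.58.1 in R 4.3.3 (lmFit on the pair of log2 ratios with a pseudocount of 1 FPKM, eBayes with its trend option), adjusted by Benjamini-Hochberg over all of them, with a threshold of 0.05. The ratio within a run makes the replicate number a block. The pairing comes from the authors' runs, while libraries of the same number showed no shared deviation from their groups (Pearson correlation -0.038 over genes).

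Members and gene lists were chosen with earlier results of these data known. Genes named are the 10 subunits, Atad2, listed paralogs, genes of a list past the threshold and the 4 of highest level in a list; some genes that this rule names are not reported here. Alternatives tried were pseudocounts of 0.1 and 5 FPKM, 2 other scalings, no minimum or one of 5 FPKM, no block, no trend, other row sets, removal of the GC trend and leaving out each replicate. The scripts were tested on simulated data. Promoters were RefSeq sequences, and Python 3.11.15, pandas 2.3.3, numpy 2.4.6 and matplotlib 3.10.9 were used.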

Additional observations from a re-analysis of the deposited data

How the results depend on the processing

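The count of changed Polycomb subunits was 0 of 10 under the main settings and 0 under each alternative, where 10, 9 (minimum mean of 5 FPKM) or 5 (rows named by matching length only) of them were tested, and between 0 and 2 of them had an unadjusted p under 0.05 by limma. Of 114 values of single subunits under alternatives with a test, 112 kept their direction and their side of the threshold. The others were Ezh2, at -0.23 with rows named by matching length only, which leaves a transcript of 863 bases alone, and Mtf2, at 0.010 after rescaling to TPM. The count of changed genes was 213, and it was 336 after rescaling to TPM, 0 with no filter on level (1907 genes at an unadjusted p under 0.05, by limma), 18 with rows of all lengths and 32 with rows named by matching length only, where 3594 genes were tested. Higher calls were 168 of 213 under the main settings and 291 of 336 after rescaling to TPM. Without the replicate block, that is without the pairing, 154 genes passed, 153 of them shared with the 213, and the adjusted p of Ring1 was 0.20 and that of Epop 0.0081 by limma. Leaving out the block changed no call of a subunit. The log2 ratio of Atad2 lay between -1.60 and -1.28 over the tested alternatives, and its adjusted p by limma rose to 0.50, at a log2 ratio of -1.53, with no filter on level. Leaving out a replicate gives a value and no test. The log2 ratio of Atad2 was then -1.66 or -1.40, and the sign of Ezh2, Suz12, Jarid2, Mtf2 and Aebp2 depended on which pair was left. The alternatives for Epop, Kdm2b, Kdm6a and Kdm6b were chosen after seeing the data. Kdm2b passed the threshold with a pseudocount of 5 FPKM (adjusted p = 0.048, range over the alternatives 0.048 to 0.50, by limma) and Kdm6a after rescaling to TPM (adjusted p = 0.038, range 0.038 to 0.50, by limma). The cause of these differences was not tested. The tables hold no read counts, so the depth behind a value could not be given.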
